A study of Mus musculus with 2 samples.

Results

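The Mir130 and Mir301 genes encode a small family of microRNAs (miRNAs), very short RNAs that silence the messenger RNAs they pair with. The family was taken as the genes Mir130a, Mir130b, Mir301 and Mir301b, found by matching the Ensembl identifiers of the count tables to the GENCODE mouse annotation, and all 4 were found among the 1973 miRNA genes of the tables. They were measured by sequencing short RNAs from neural tube, the forerunner of brain and spinal cord, of B6NCrl mouse embryos at 15.5 days. The series holds 1 group of 2 biological replicates, both described as healthy and of mixed sex, with no allele, treatment or other condition to compare. Library 1 was a pool of 78 embryos and library 2 a pool of 62 embryos, and both carry the same donor label. A pool averages over embryos and over all cells of the tissue, so in these bulk samples fewer cells of a type and less RNA per cell cannot be told apart.

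A miRNA finds its targets mainly through its seed, bases 2 to 8 counted from its 5′ end, so miRNAs with the same seed can bind the same sites. The miRNAs of this family differ mostly outside the seed. In human cells the family is known to repress PPARG, a regulator of fat cell formation. miR-130a is also known from endothelial and blood-forming cells, and miR-130b and miR-301a are known for promoting cell division in tumour cells.

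The 3′ arms listed by RefSeq are shown first because they define the family. The seed is in capitals, on build GRCm38.p6.
miR-130a-3p: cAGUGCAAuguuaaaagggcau
miR-130b-3p: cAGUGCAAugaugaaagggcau
miR-301a-3p: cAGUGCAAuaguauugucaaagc

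Aligned from position 1 without gaps, the 3′ arms of miR-130a and miR-130b were identical at 20 of 22 positions. Written with the miR-130a base first and positions counted from the 5′ end, they differed by U11A and A13G, both outside the seed. The 3′ arms of miR-130a and miR-301a were identical at the first 9 positions and at 12 of 22 in all. No 3′ arm of Mir301b is in the RefSeq table used here, but its hairpin holds the same 7 letters once, at positions 56 to 62. The hairpins of the neighbouring genes Mir130b and Mir301b are shown because they lie side by side and were counted at very different levels. The letters AGUGCAA are in capitals.
Mir130b hairpin: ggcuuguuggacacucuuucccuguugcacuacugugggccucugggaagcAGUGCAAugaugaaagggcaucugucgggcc
Mir301b hairpin: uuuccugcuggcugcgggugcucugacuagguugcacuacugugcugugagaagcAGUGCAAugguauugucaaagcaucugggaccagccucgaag

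Unlike the 3′ arms shown above, the 5′ arms do not all share the same seed. Their bases 2 to 8 are in capitals.
miR-130a-5p: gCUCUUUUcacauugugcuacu
miR-130b-5p: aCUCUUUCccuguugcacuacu
miR-301a-5p: gCUCUGACuuuauugcacuacu
miR-301b-5p: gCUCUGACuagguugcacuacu
The 5′ arms of miR-301a and miR-301b shared their seed and were identical at 19 of 22 positions, whereas those of miR-130a and miR-130b differed within the seed, by U8C, and were identical at 15 of 22. The deposited values count reads per gene, so reads of the 5′ and the 3′ arm are added together and the share of each arm cannot be read from them.

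The genes lie at 3 places in the mm10 genome. Mir130a (ENSMUSG00000065484.1) lies on chromosome 2 at 84741115 to 84741178 on the minus strand, inside no other annotated gene, with Gm19426 on the same strand 990 bases away. Mir301 (ENSMUSG00000065589.1) lies on the plus strand of chromosome 11 at 87113004 to 87113089, in an intron of Ska2, which encodes a subunit of the complex that holds kinetochores to spindle microtubules at mitosis. Mir130b (ENSMUSG00000065572.1) and Mir301b (ENSMUSG00000076288.1) lie on the minus strand of chromosome 16, at 17124061 to 17124142 and at 17124400 to 17124496. Only 257 bases separate them, and both sit in an intron of the protein-coding gene 2610318N02Rik. Neither these 2 hairpins nor that of Mir301 overlapped an exon of any annotated transcript of its host.

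All 4 genes were detected, with at least 10 counts on the sense strand in each library. Levels are given as CPM, the counts of a gene scaled to the sum of sense-strand counts in miRNA genes (1000000 CPM), which was 4228685 in library 1 and 6039889 in library 2. A read covers most of a mature miRNA, so the counts are not divided by length, and the levels compare reads and not molecules. Mir130a was by far the most abundant member, with 59472 counts (14064 CPM) in library 1 and 83987 counts (13905 CPM) in library 2, or 13985 ± 112 CPM (SD, n = 2). It ranked 12 of 1973 genes by its mean, and was the only member among the 20 most abundant. Reads that aligned to several places were counted in no gene, so genes with copies may rank too low.

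Mir130b followed with 13395 counts (3168 CPM) in library 1 and 18591 counts (3078 CPM) in library 2, a mean of 3123 ± 63.4 CPM (n = 2) at rank 47. Mir301, the Ska2 intronic gene, had 5031 counts (1190 CPM, 95% Wilson interval 1157 to 1223) in library 1 and 7343 counts (1216 CPM, 1188 to 1244) in library 2, a mean of 1203 ± 18.4 CPM (n = 2) at rank 77. Mir301b was the least abundant, with 352 counts (83.2 CPM, 75.0 to 92.4) in library 1 and 492 counts (81.5 CPM, 74.6 to 89.0) in library 2, a mean of 82.3 ± 1.26 CPM (n = 2) at rank 211. The order Mir130a, Mir130b, Mir301, Mir301b was the same in both libraries, and the values of neighbouring members did not overlap. The SD over the libraries was between 0.802% of the mean for Mir130a and 2.03% for Mir130b. Intervals cover counting error only, since PCR-amplified reads without molecular identifiers are not independent molecules.

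**Figure D1:**
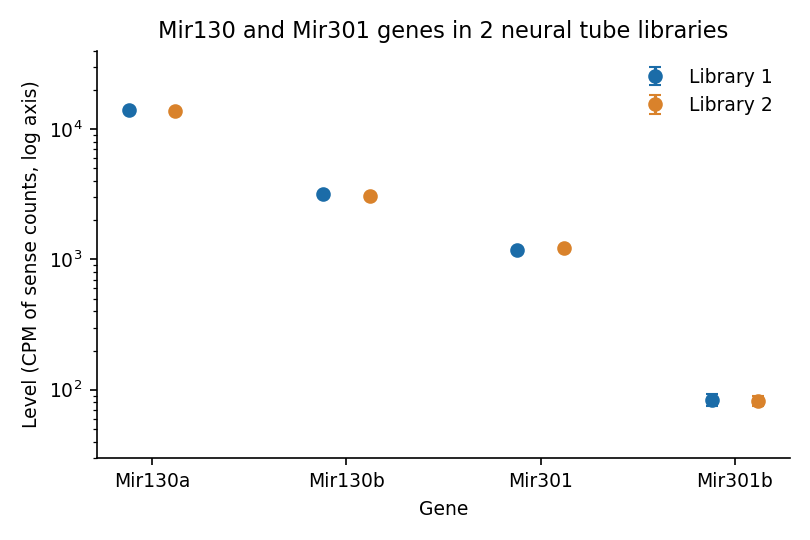
Level of each gene in CPM of sense-strand counts (log axis) in library 1 (blue, left) and library 2 (orange, right), with 95% Wilson intervals that are mostly smaller than the points. The levels step down from about 13985 CPM for Mir130a to 82.3 CPM for Mir301b, and the libraries lie side by side for every gene.

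Together the genes took 1.85% of library 1 (1.84 to 1.86, 95% by Wilson's method) and 1.83% of library 2 (1.82 to 1.84), as shares of sense counts, a mean of 18393 ± 158 CPM (n = 2). Mir130a made up 76.0% of the family in library 1 (75.7 to 76.3) and 76.1% in library 2 (75.8 to 76.3). Mir130b made up 17.1% (16.9 to 17.4) in library 1 and 16.8% (16.6 to 17.1) in library 2. Mir301 made up 6.43% (6.26 to 6.60) in library 1 and 6.65% (6.51 to 6.80) in library 2, and Mir301b 0.450% (0.405 to 0.499) and 0.446% (0.408 to 0.487). These shares depend on neither the library size nor its scaling. By either library, Mir130a and Mir130b thus held most of the reads, and the neighbours Mir130b and Mir301b stood far apart.

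Mir130b had 38.1 times the counts of Mir301b in library 1 (95% exact interval 34.2 to 42.4) and 37.8 times in library 2 (34.5 to 41.4), although the genes lie 257 bases apart on the same strand. The quotient of these ratios, library 1 over library 2, was 1.01 (95% Wald interval 0.877 to 1.16). Mir130a had 4.44 times the counts of Mir130b in library 1 (4.36 to 4.52) and 4.52 times in library 2 (4.45 to 4.59), with a quotient of 0.983 (0.959 to 1.01). Among the 6 pairs of members, the interval of the quotient covered 1 for 5. The exception was Mir130b to Mir301, with 2.66 (2.58 to 2.75) in library 1 and 2.53 (2.46 to 2.60) in library 2, a quotient of 1.05 (1.008 to 1.097). The intervals are not adjusted over the 6 pairs and hold counting error only.

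**Figure D2:**
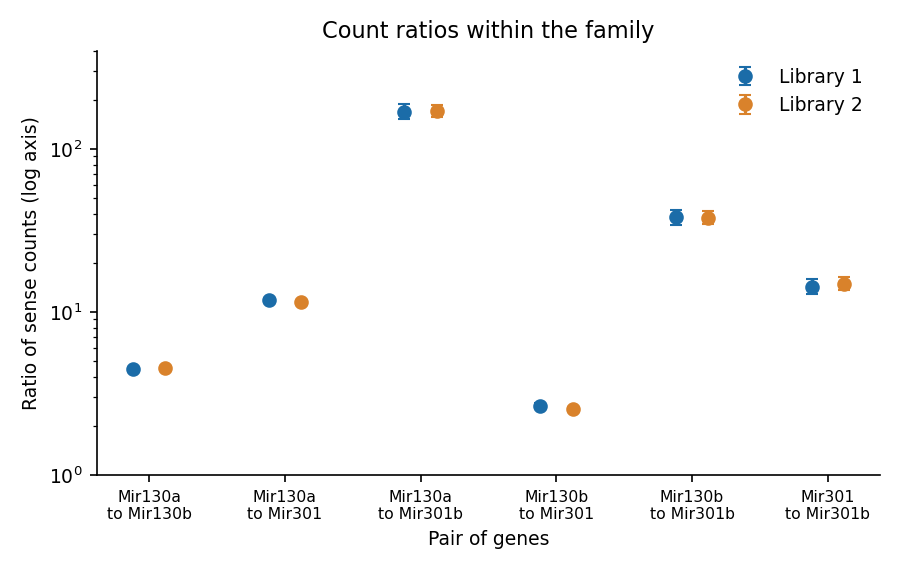
Ratio of sense counts for each of the 6 pairs of genes (log axis) in library 1 (blue, left) and library 2 (orange, right), with 95% exact intervals. The ratios run from 2.53 for Mir130b to Mir301 up to 171 for Mir130a to Mir301b, and the libraries nearly coincide in every pair.

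Between the pools the log2 levels of the members differed by at most 0.07. Each of the 363 genes that reached 10 counts in both was compared by an exact binomial test, two-sided with Benjamini-Hochberg adjustment over all of them, after TMM scaling. The comparison is of 2 libraries and of no condition, and its only error term is that of counting. The log2 ratio of library 1 to library 2 was -0.02 for Mir130a (95% interval -0.03 to -0.0023, exact binomial adjusted p = 0.0494) and -0.07 for Mir301 (-0.12 to -0.01, exact binomial adjusted p = 0.0299). It was 0.0076 for Mir130b (-0.02 to 0.04, exact binomial adjusted p = 0.760) and -0.0026 for Mir301b (-0.20 to 0.20, exact binomial adjusted p = 1). So 2 of 4 members passed the test, both lower in library 1, against 49.9% of all 363 genes called in either direction, a share near that of the family, and 24.2% called lower in library 1. The median log2 ratio was -0.0100 over the members and -0.0036 over all 363 genes.

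Neither call held under every setting, though both held with the counts of both strands together and with no filter on counts. With library sizes alone the log2 ratio of Mir130a was 0.016 (exact binomial adjusted p = 0.0705), the opposite direction, and that of Mir301 was -0.03 (exact binomial adjusted p = 0.348). Under that setting the member called was Mir130b, higher in library 1, with a log2 ratio of 0.04 (exact binomial adjusted p = 0.0254). By the exact test of edgeR, whose error includes the variation of the pools, 0 of 4 members were called, and 0 at an unadjusted p under 0.05, against 2.20% of all genes called. That spread, a coefficient of variation of 34.4%, was estimated from these very libraries, so this test can miss real differences.

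By size, the members sat among the genes that differed least. All 4 lay within 1.1-fold between the libraries, against 41.0% of the 363 genes and 48.5% of the 239 genes of at least 50 CPM. The 1.1-fold limit was chosen after the values were seen, and more deeply counted genes vary less by sampling. Ordered by the size of the log2 ratio from the smallest, Mir301b stood at place 2, Mir130b at 10, Mir130a at 27 and Mir301 at 65 of 363. The median size of the log2 ratio over all these genes was 0.20. Past 1.5-fold lay 0 of 4 members, against 13.2% of all genes.

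**Figure D3:**
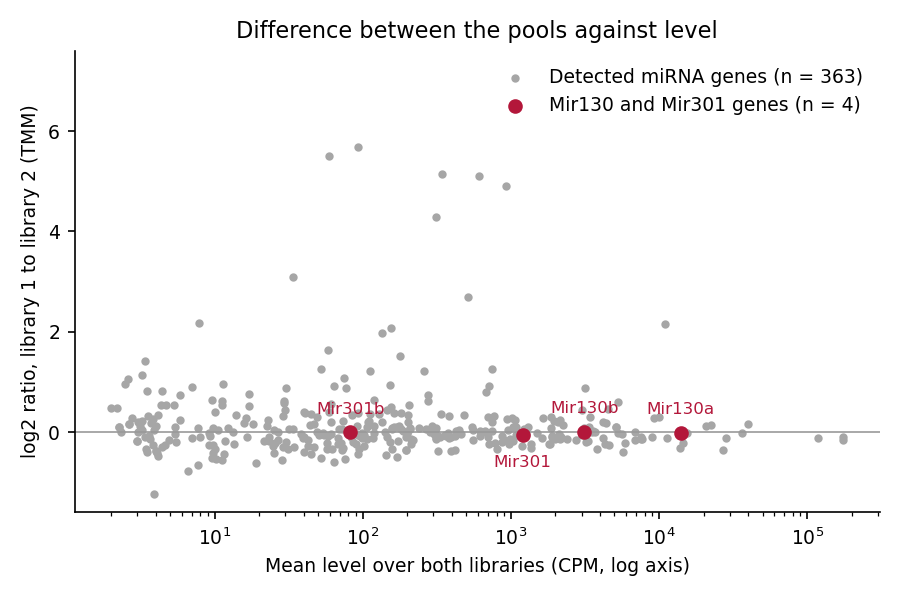
log2 ratio of library 1 to library 2 after TMM scaling against the mean level in CPM (log axis) for the 363 detected miRNA genes (grey) and the family (red). The 4 members lie close to the line of no difference, between -0.07 for Mir301 and 0.0076 for Mir130b.

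In the order of mean level, Mir130a stood between Mir99b, with 14434 ± 1242 CPM, and Mir149, with 13772 ± 1898 CPM (n = 2 each). Mir130b stood between Mir151 with 3139 ± 180 CPM and Mir98 with 3106 ± 48.0 CPM. Mir301 stood between Mir96 with 1228 ± 55.2 CPM and Mir770 with 1180 ± 141 CPM, and Mir301b between Mir3074-1 with 83.3 ± 2.37 CPM and Mir34a with 76.8 ± 33.2 CPM. In all 8 cases the values of the neighbour over the libraries overlapped those of the member, which is a description only, since the neighbours were chosen by mean level. This likeness is one of level, over 2 libraries.

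Other mouse genes with the same seed were nearly absent from the counts. RefSeq lists 7 mature miRNAs with AGUGCAA at bases 2 to 8, 0.403% of its 1738 mature sequences, and 3 of them are the 3′ arms shown above. The others are those of Mir130c, Mir721, Mir6341 and Mir6389. Mir721 was not analysed here. Mir130c and Mir6389 had 0 counts in both libraries, which, at a limit of 3 counts, allows a level of 0.709 CPM in library 1 or less and of 0.497 CPM or less in library 2. Mir6341 had 0 counts in library 1 and 1 count in library 2. Nearly all counts in analysed genes with this seed therefore came from the family.

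Copies of a sequence matter here, because the 29.4% of reads in library 1 and 29.7% in library 2 that aligned to several places were assigned to no gene. Compared with 2201 other annotated miRNA precursors on both strands, no member shared a stretch of 20 bases. The longest shared stretch was 17 bases for Mir130a, with Mir6389, and 16 bases for Mir130b, with Mir6368, and for Mir301 and Mir301b, with each other. No listed mature sequence of a member occurs unchanged in another precursor. These searches were for exact matches only, and near matches exist. The 3′ arms of miR-130a and miR-130b are identical at 20 of 22 positions, and the Mir301b hairpin nearly matches the 3′ arm of miR-301a. Whether reads of such near matches were exchanged between members or dropped was not tested. The shares of the members and the ratios between them could be affected. Genes that do share long stretches, such as Mir128-1 and Mir128-2 with 23 bases, may be counted too low. The members' ranks and shares of all counts may therefore be too high beside such genes. Copies outside annotated precursors were not looked for, and whether reads shorter than these stretches were left out was not tested. On the opposite strand, Mir130a had 5 counts in library 1 and 2 counts in library 2, and the other members had 0.

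The miRNAs of Mir148a, Mir148b and Mir152, known in human cells to repress the DNA methyltransferase DNMT1, carry a seed that overlaps that of the family, shifted by 1 base and with 6 letters in common. They are shown with their own bases 2 to 8 in capitals.
miR-148a-3p: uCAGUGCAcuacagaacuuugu
miR-148b-3p: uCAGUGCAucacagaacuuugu
miR-152-3p: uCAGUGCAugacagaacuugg
Together these genes reached 312 ± 55.3 CPM (n = 2), so that the Mir130 and Mir301 family had 52.7 times their counts in library 1 and 67.0 times in library 2. The quotient of these ratios was 0.787 (95% Wald interval 0.733 to 0.844, counting error only). The Mir148 and Mir152 genes were higher in library 1 in 3 of 3 cases by the exact binomial test, with log2 ratios of 0.22 to 0.40, against 25.6% of all genes called in this direction.

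The proliferation-linked list was set beside the family because miR-130b and miR-301a are known for promoting cell division. Mir18a was not found by that name, so the list was taken as Mir17, Mir19a, Mir19b-1, Mir20a, Mir92-1, Mir106b, Mir93 and Mir25. It held 23406 CPM in library 1 and 18641 CPM in library 2. Of its 8 analysed genes, 5 were called higher in library 1 and 0 higher in library 2 by the exact binomial test, against 25.6% and 24.2% of all genes, with a median log2 ratio of 0.29. The family had 0.791 times its counts in library 1 and 0.981 times in library 2, a quotient of 0.806 (0.796 to 0.816). A gene named Mir18, with a mean of 2131 CPM, was left out of the list, and whether it is Mir18a was not tested. Mir18 was called higher in library 1, at a log2 ratio of 0.25 (exact binomial adjusted p = 7.5e-36). Counting Mir18 in the list would raise the list's totals and lower both ratios of the family to the list. Mir301, in an intron of the mitotic gene Ska2, had a log2 ratio of -0.07, and the genes of this list lay between -0.01 and 0.79.

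The libraries differed in markers of other cell types, on lists drawn up with earlier results of these data known. The epithelial list held 5458 CPM in library 1 and 631 CPM in library 2, and the mesenchyme and smooth muscle list 22420 and 7594 CPM. All 7 epithelial genes and 5 of 6 detected mesenchyme genes were called higher in library 1 by the exact binomial test, against 25.6% of all genes, while the mesenchyme gene Mir140 was called lower in library 1, with a log2 ratio of -0.05. The family held 18505 CPM in library 1 and 18281 CPM in library 2. The endothelial gene Mir126a, relevant because miR-130a is known from endothelium, reached 22011 CPM in library 1 against 19666 CPM in library 2, a log2 ratio of 0.13. The haematopoietic list held 635 CPM in library 1 and 420 CPM in library 2, with 3 of its 6 detected genes called higher in library 1 against 25.6% of all genes. Of this list, Mir142 was not found by that name, and Mir142b had 0 counts in both libraries. The part of these cell types in the family's levels was not tested.

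Neural markers were present in both pools. The neuron-enriched list held 10279 CPM in library 1 and 10910 CPM in library 2, with 7 of 10 genes detected, led by Mir137. Of the 7, 2 were called lower in library 1 by the exact binomial test, near the 24.2% of all genes, and Mir138-1 and Mir138-2 had log2 ratios of 0.05 each. Its defining Mir124a copies had 0.473 to 1.89 CPM in library 1 against 0.828 to 2.81 CPM in library 2. These values do not give the level of miR-124, because the 3 copies share stretches of 32 bases and reads aligned to several places were counted in no gene. Of the 10 listed genes, 9 share at least 20 bases with another precursor, so the list total may be too low. The other marker lists and the proliferation-linked list were not searched for shared stretches, so their totals may be too low as well. The progenitor genes Mir92b, Mir9-2 and Mir9-3 together held 2071 CPM in library 1 and 2353 CPM in library 2, with Mir9-1 not analysed, and the oligodendrocyte genes 2095 and 2328 CPM. By the exact binomial test, 1 of 2 detected progenitor genes and 1 of 3 oligodendrocyte genes were called, Mir92b and Mir219a-2, both lower in library 1, while Mir338 had a log2 ratio of 0.04.

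**Figure D4:**
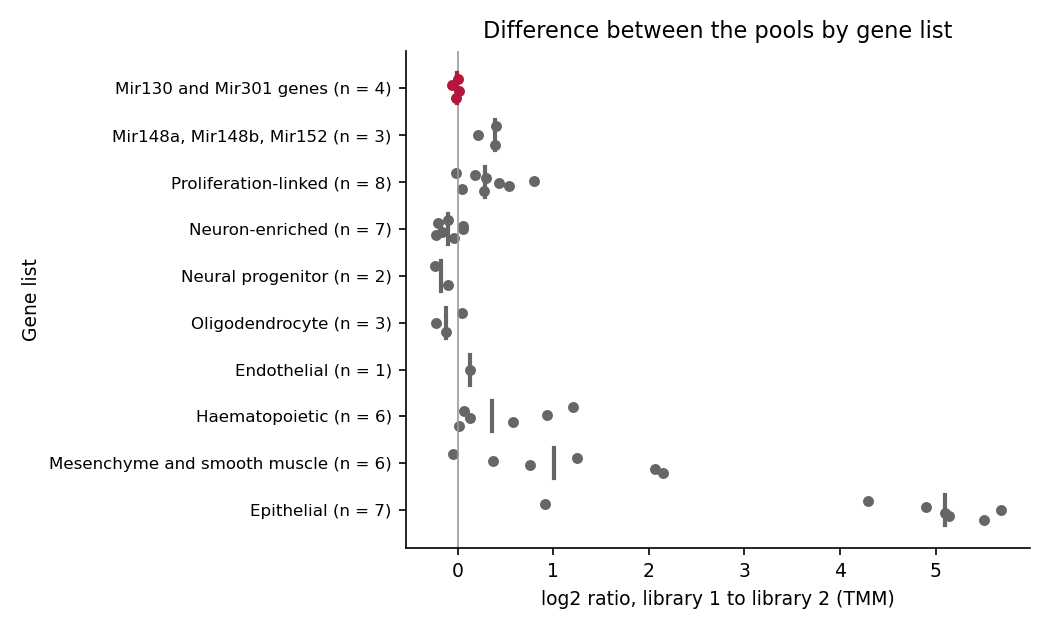
log2 ratio of library 1 to library 2 after TMM scaling for each detected gene (points) of the family (red) and of the other lists (grey), with the median of each list as a vertical line. The family lies between -0.07 and 0.0076, the epithelial genes between 0.91 and 5.69.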

How the data were processed

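Short RNAs were sequenced from 2 pools of embryonic neural tube. The authors deposited 1 table of raw read counts per library, on build mm10 with GENCODE M4, according to the README that accompanies each table. The aligner and counting tool are not named there. Each deposited count appears for both strands together and for each strand, and the sense-strand column was used, which held 98.2% and 98.4% of the counts in genes. The 4 leading entries name no gene, held 45.7% and 47.7% of 7925935 and 11738914 reads, and were left out. GENCODE M21, also on mm10, gave the symbols, matching 1894 of 1973 identifiers without version, and with version for all members. Printed sequences are from RefSeq, and all 4 members were matched.

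CPM, TMM scaling (edgeR 4.0.16 in R 4.3.3), exact binomial tests at an adjusted p of 0.05 and 95% intervals were computed in Python 3.11.15 (scipy 1.17.1, numpy 2.4.6, pandas 2.3.3, with plots by matplotlib 3.10.9). edgeR's quasi-likelihood test needs 2 groups and was not run. DESeq2 1.42.0 size factors and other settings were alternatives. The members, lists and tests were chosen with earlier results of these data known. Besides the members, the text names the genes next to them in mean level, genes with the same or an overlapping seed, a proliferation-linked list and cell type markers. The libraries' counts differed by more than sampling noise (chi-square 116275 on 438 degrees of freedom), so they were kept as 2 samples.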

Additional observations from a re-analysis of the deposited data

Results flagged for a closer look

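A signal outside the main measurement was the count of Mir130a on the opposite strand in library 1, at 5 counts, above the limit of 3 counts that a count of 0 allows. It was 0.00841% of the Mir130a counts of both strands in library 1 (95% Wilson interval 0.00359 to 0.0197) and 2 counts, or 0.00238% (0.000653 to 0.00868), in library 2.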

How the results depend on the processing

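The number of members detected was 4 with minimums of 1 and of 50 counts. The family's mean of 18393 CPM was 18281 to 18505 CPM with either library left out, 18080.5 CPM with unstranded counts, 34459 CPM without the 3 most abundant genes in the library size, 9639 CPM over all reads and, chosen after seeing the data, 18734 CPM without the epithelial and mesenchyme lists in the library size. The family's log2 ratio (library 1 over library 2), -0.016, became 0.018 with library sizes alone and 0.046 without those lists, -0.048 with no filter and -0.0027 with library 2 thinned. Of the members, 2 were called with unstranded counts (against 50.1% of all genes) and with no filter (against 25.4%), Mir130a and Mir301 each time. Only 1 was called with DESeq2 size factors (Mir301, against 48.5% of all genes), with library sizes alone (Mir130b, higher in library 1, against 47.1%) and with at least 50 counts (Mir301, against 59.4%). With thinning 0 were called, against 46.5% of 355 genes, and 0 at an unadjusted p under 0.05, against 180 of the 355 genes. With edgeR's exact test, which called 8 genes in all, 0 members were called. Signs that changed were Mir130a at 0.016 with library sizes alone, Mir130b at -0.024 with no filter, and Mir301b at 0.00099 with DESeq2 size factors, 0.031 with library sizes alone, 0.0030 with at least 50 counts and 0.073 with thinning. Across these 7 settings the members' log2 ratios stayed between -0.10 and 0.07. The family's ratio is smaller than its shift between scalings, so its direction is not settled, and the cause was not tested. With 352 and 492 counts, depth limits Mir301b most. No paired analysis was possible because there is 1 group only.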
